A study of Danio rerio with 85 samples.

Results

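T-box genes of the heart and the limb were examined in zebrafish embryos that lack the Polycomb protein Rnf2. The genes were *tbx1*, *tbx2a*, *tbx2b*, *tbx3a*, *tbx5a*, *tbx5b*, *tbx15* and *tbx20*, chosen by their symbols and found in the deposited tables under 9 Ensembl identifiers, because *tbx1* has 2 of them (ENSDARG00000031891 and ENSDARG00000097046). Of these 8 genes, 4 were listed among the 6877 genes of the hearts at 1 day post fertilization (dpf), 7 among 11033 genes at 2 dpf, 7 among 11221 genes at 3 dpf and 8 among 30029 genes of whole embryos at 3 dpf, with 30055 genes over all tables. *tbx3a*, *tbx5a* and *tbx20* were not listed at 1 dpf, and *tbx5b* was listed in whole embryos only.

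Single hearts were dissected by hand from embryos with the *myl7*:GFP transgene, which marks cardiomyocytes, in a TU/TLF mixed background. The hearts labelled *rnf2*-/- numbered 8 at 1 dpf, 9 at 2 dpf and 9 at 3 dpf, against 9, 13 and 10 hearts labelled *rnf2*+/+ at the same ages. All came from crosses between heterozygous carriers of 1 mutant allele with a premature stop codon, so that mutants still received maternal *rnf2* product, and each embryo was genotyped from the rest of its body. Whole embryos at 3 dpf were sequenced as 7 pools of *rnf2*-/- embryos, labelled TU/TLF mixed background and picked by their phenotype, and 8 pools of wildtype embryos, labelled TLF. The methods call the controls a strain of matching genetic background, and as the labels differ, genotype and strain label cannot be told apart in whole embryos. Whether the pools or the single hearts came from separate clutches is not given in the sources used here. The p-values therefore measure the spread between pools or between hearts. The paper removed a batch effect with RUVSeq before its own tests of whole embryos. The main tests here used no such correction, and 1 surrogate variable was fitted as an alternative.

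T-box proteins bind DNA through a shared domain and turn genes on or off in developing organs. In the vertebrate heart, Tbx2 and Tbx3 repress the programme of the working chambers in the atrioventricular canal and the conduction system, and Tbx5 and Tbx20 act in the chambers, where Tbx5 activates chamber genes together with Nkx2.5 and Gata4. Tbx5 also starts the forelimb, which is the pectoral fin in fish, Tbx1 acts in the pharyngeal arches and in the progenitors of the outflow tract, and Tbx15 acts in limb and skin mesenchyme of the mouse. Rnf2 is the catalytic subunit of Polycomb repressive complex 1, which ubiquitinates histone H2A and keeps developmental regulators silent. In the annotation of assembly GRCz12tu, *tbx5a* and *tbx3a* are direct neighbours and *tbx2b* lies next to *tbx4*.

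In hearts, transcripts were counted as unique molecular identifiers (UMIs), 1 tag per molecule taken at the 3′ end, and the depth ranged from 2453 to 83738 UMIs in mutant and from 4009 to 51621 in wildtype hearts at 1 dpf. At 2 and 3 dpf it ranged from 46943 to 109942 UMIs in mutant and from 23523 to 82308 in wildtype hearts, with medians of 76771 and 64280 in mutant against 39204 and 39780 in wildtype hearts. Whole embryos had 6251467 to 11036762 reads in mutants and 4711185 to 12585927 in wildtypes. Transcripts of *rnf2* itself were lower in mutants: 116 to 153 normalized reads in mutant against 497 to 699 in wildtype pools, and in total 3, 19 and 11 UMIs in mutant against 19, 67 and 46 UMIs in wildtype hearts at 1, 2 and 3 dpf. Its change passed the test in whole embryos (log2 fold change −2.08 ± 0.0842, SE, adjusted p = 2.31e-13) and in hearts at 2 dpf (−1.56 ± 0.302, adjusted p = 0.000271), not in hearts at 3 dpf (−1.32 ± 0.391, adjusted p = 0.0155) or 1 dpf (−0.75 ± 0.362, adjusted p = 0.971). The call at 2 dpf was lost with the number of detected genes as a covariate (−1.51, adjusted p = 0.0373) and with thinning (−1.67, adjusted p = 0.124), and at 3 dpf a call was gained with edgeR (−2.22, adjusted p = 9.76e-05), with the covariate (−1.85, adjusted p = 0.00389) and in 5 of 19 fits that each left out 1 heart. All 7 cardiomyocyte markers were listed in hearts at every age.

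At 3 dpf the 3 genes for the repressors Tbx2 and Tbx3 were all higher in *rnf2* mutant hearts. *tbx3a* had 5.52, 9.32 and 11.9 normalized UMIs (lowest, median and highest of 9 hearts) in mutants, against 0, 0 and 0.692 in 10 wildtype hearts. The groups did not overlap: all 9 mutant hearts had *tbx3a* UMIs, 98 in total, against 1 UMI in 1 of 10 wildtype hearts. Its share of all UMIs was 72.7 times as high in mutants, with a 95% exact interval of 12.8 to 2901 that covers counting error only. On the log2(value + 1) scale, which understates changes of genes with low counts, the difference was 3.10 ± 0.347 (SE, n = 9 and 10; limma, adjusted p = 1.09e-12). *tbx3a* was above 0 in 10 of the 19 hearts at 3 dpf, 9 of them mutant, and a gene was listed from 5 hearts on, so that *tbx3a* was in the table through the mutants. This listing favoured a higher value in mutants, so the p-value is no independent support.

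*tbx2b* had 16.5, 28.9 and 38.4 normalized UMIs in mutant hearts at 3 dpf, against 4.28, 10.8 and 17.2 in wildtype hearts. Of 9 mutant hearts, 8 were above every wildtype heart, and the lowest mutant heart fell within the wildtype range. The log2 fold change was 1.35 ± 0.215 (SE; limma, adjusted p = 4.39e-07). Its paralog *tbx2a* had 11.4, 21.8 and 34 normalized UMIs in mutant hearts, against 3.95, 10.1 and 13.9 in wildtype hearts. Again 8 of 9 mutant hearts exceeded the highest wildtype heart, and the log2 fold change was 1.12 ± 0.231 (SE; limma, adjusted p = 0.000152). With the number of detected genes as a covariate the value of *tbx2a* was 0.89 (adjusted p = 0.0248), and with all hearts thinned to 27309 UMIs it was 1.18 (median adjusted p = 0.0193, under 0.01 in 7 of 20 draws), so that its call was lost with either; over all alternatives its adjusted p ranged from 1.49e-06 to 0.0248.

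The other 4 listed genes did not pass the test at 3 dpf. *tbx5a*, the activator of chamber genes, had 1.43, 4.0 and 6.54 normalized UMIs in mutant hearts and 0, 2.11 and 4.46 in wildtype hearts. The groups overlapped, with 4 of 9 mutant hearts above all wildtype hearts, and the log2 fold change was 0.78 with a 95% interval of 0.09 to 1.46 (limma, adjusted p = 0.158). *tbx15*, the mesenchymal member, had 0, 1.67 and 4.0 normalized UMIs in mutant hearts against 0, 0 and 1.90 in wildtype hearts, or 23 UMIs in 7 hearts against 3 UMIs in 3 hearts, so that it too was in the table through the mutants. Its log2 fold change was 0.94 (0.24 to 1.65, adjusted p = 0.0796), and the ratio of its UMI shares was 5.69 (1.72 to 29.6, counting error only).

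*tbx1*, the pharyngeal and outflow tract member, was counted under ENSDARG00000031891 at 3 dpf, with 0.932, 3.27 and 7.25 normalized UMIs in mutant hearts and 0, 1.64 and 5.35 in wildtype hearts. The ranges overlapped widely, and the log2 fold change was 0.79 (0.07 to 1.52, limma, adjusted p = 0.179). *tbx20* was close to the detection limit in both genotypes, with 4 UMIs in 2 of 9 mutant hearts and 6 UMIs in 4 of 10 wildtype hearts, and a log2 fold change of −0.25 (−0.82 to 0.32, adjusted p = 0.672). A difference in *tbx20* between the genotypes was not detectable at this depth. Thus 3 of 7 listed genes were higher and 0 lower at an adjusted p under 0.01, where 5.36% of the 11221 genes tested were called in either direction and 2.96% were higher. The count includes *tbx3a*, which was listed through the mutants, and without it 2 of the other 6 were higher. The groups did not overlap in 1 of the 7, and in 1.14% of all genes.

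**Figure D1:**
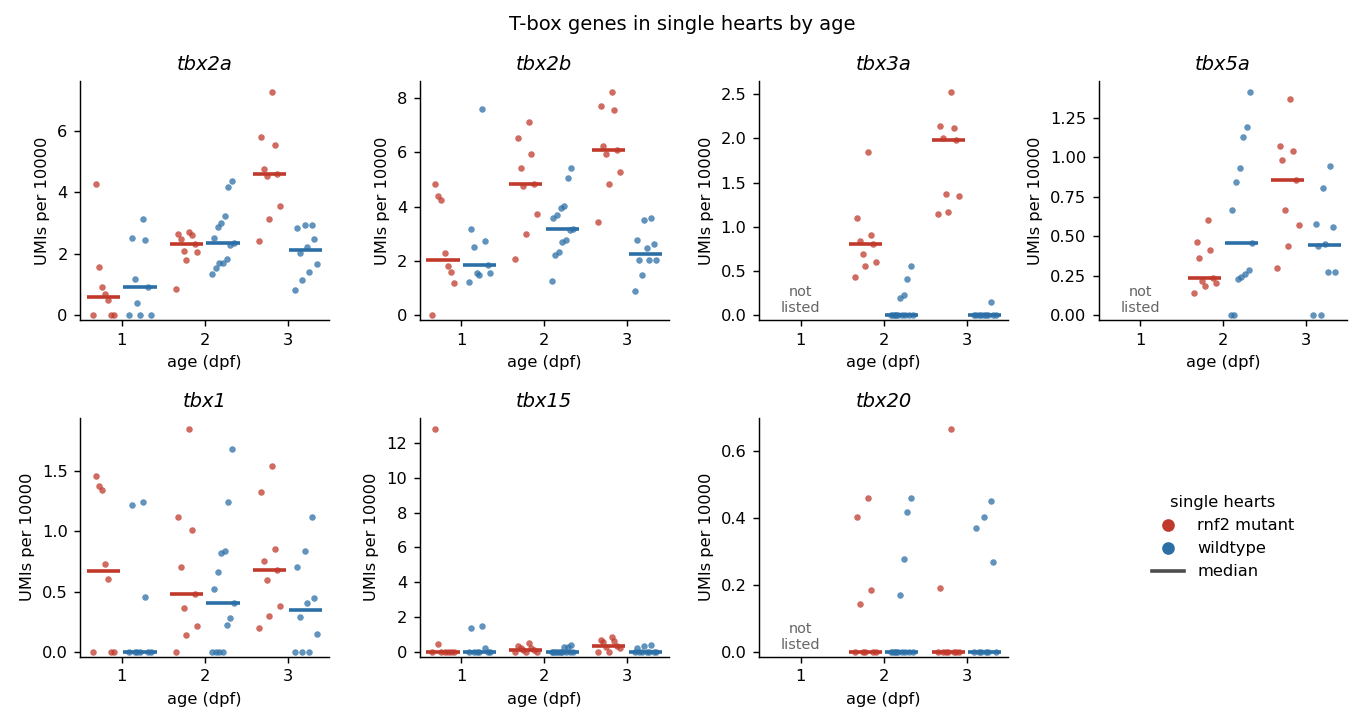
UMIs of 7 T-box genes per 10000 UMIs of the genes listed at all 3 ages (y axis, linear) by age in dpf (x axis). Each point is 1 heart, red for *rnf2* mutants and blue for wildtypes, and lines are medians; at 3 dpf the mutant medians of *tbx2a*, *tbx2b* and *tbx3a* are 4.60, 6.07 and 1.98, against 2.13, 2.25 and 0 in wildtypes. For *tbx1* the identifier ENSDARG00000031891 is shown.

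One day earlier, at 2 dpf, *tbx3a* was the single member past the threshold, in a table that listed it through the mutants. It had 2.05, 3.82 and 8.69 normalized UMIs (lowest, median and highest) in 9 mutant hearts, against 0, 0 and 2.61 in 13 wildtype hearts. Every mutant heart had *tbx3a* UMIs, and 8 of 9 were above the highest wildtype heart, which was the only one of 13 above the lowest mutant heart. The counts were 54 UMIs in mutants against 7 UMIs in 4 wildtype hearts, and the log2 fold change was 1.84 ± 0.352 (SE; limma, adjusted p = 0.000206). The call was lost with the number of detected genes as a covariate (1.46, adjusted p = 0.133) and with hearts thinned to 23523 UMIs (1.73, median adjusted p = 0.0921, under 0.01 in 5 of 20 draws), and over the alternatives the adjusted p ranged from 0.000149 to 0.133. At this age a gene was listed from 6 hearts on, and *tbx3a* was above 0 in 9 mutant and 4 wildtype hearts, so that here too it was in the table through the mutants. The listing again favoured a higher value in mutants, and the p-value is no independent support.

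*tbx2b* had 9.70, 23 and 33.4 normalized UMIs in mutant hearts at 2 dpf and 6.04, 15 and 25.5 in wildtype hearts. The ranges overlapped, with 4 of 9 mutant hearts above all wildtype hearts, and the log2 fold change of 0.49 (95% interval 0.09 to 0.90) did not pass (limma, adjusted p = 0.354). *tbx2a* had 4.10, 10.6 and 12.7 normalized UMIs in mutant hearts against 6.42, 11 and 19.9 in wildtype hearts, a log2 fold change of −0.18 (−0.63 to 0.26, adjusted p = 0.869). In 5 of 13 wildtype hearts *tbx2a* was above every mutant heart. *tbx5a* had 0.668, 1.09 and 2.86 normalized UMIs in mutant hearts against 0, 2.19 and 6.65 in wildtype hearts, with a log2 fold change of −0.39 (−1.08 to 0.31, adjusted p = 0.805).

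At 2 dpf *tbx1*, *tbx15* and *tbx20* had totals of 40, 12 and 6 UMIs in mutant hearts and of 26, 4 and 4 UMIs in wildtype hearts. Their log2 fold changes were 0.31, 0.43 and 0.13, and all 3 adjusted p were 0.652 or higher (limma). *tbx15* was above 0 in 6 mutant and 3 wildtype hearts and was likewise listed through the mutants. In all, 1 of 7 members was higher and 0 lower, where 0.634% of the 11033 genes tested were called in either direction and 0.381% were higher, but the 1 is *tbx3a*, so that nothing is read from this count.

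At 1 dpf no member passed. *tbx2b*, the most abundant, had 0, 2.61 and 6.12 normalized UMIs (lowest, median and highest) in 8 mutant hearts and 1.54, 2.35 and 9.33 in 9 wildtype hearts, a log2 fold change of −0.12 (95% interval −1.04 to 0.80; limma, adjusted p = 0.994). *tbx2a* had 9 UMIs in 5 mutant hearts and 16 UMIs in 6 wildtype hearts, and *tbx15* had 4 UMIs in 2 mutant hearts and 4 UMIs in 3 wildtype hearts. The 2 identifiers of *tbx1* had 11 and 2 UMIs in mutant hearts against 8 and 6 UMIs in wildtype hearts. Of the 5 identifiers of 4 genes, 0 were called by limma, edgeR or DESeq2 and 0 had an unadjusted p under 0.05. Of all 6877 genes 0.0872% were called, with 0.00% higher, and 4.30% had an unadjusted p under 0.05. The 95% intervals of the log2 fold changes lay between −1.04 and 1.11, on the log2(value + 1) scale that understates changes at such low counts. Ratios of UMI shares, with intervals of counting error only, were less certain. They were 1.07 (0.199 to 5.74) for *tbx15* and 1.47 (0.538 to 4.21) and 0.356 (0.0351 to 1.99) for the 2 identifiers of *tbx1*. Larger changes are therefore not excluded at 1 dpf. Blood markers were lower in mutant hearts at this age, with 3 of 6 past the threshold and sums of 4.71 to 132 normalized UMIs in mutants against 46.6 to 210 in wildtypes, and their part in the T-box values was not tested.

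The wildtype course over age was read on a common scale, UMIs per 10000 UMIs of the 6466 genes listed at all 3 ages, because the authors normalized each age apart. *tbx2b* had medians of 1.86, 3.18 and 2.25 UMIs per 10000 in wildtype hearts at the successive ages of 1, 2 and 3 dpf. For *tbx2a* they were 0.908, 2.37 and 2.13. The ranges of neighbouring ages overlapped for both. *tbx5a* had medians of 0.460 and 0.446 at 2 and 3 dpf, and *tbx3a* was at a median of 0 at both ages, with 7 and 1 UMIs in total. The 1 dpf libraries carry other names in the labels than the later ones, so that age and library cannot be told apart there, and no test was made of 1 dpf against later ages.

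Between 2 and 3 dpf, 0 of 7 members passed the test in wildtype hearts (limma on recovered UMIs scaled to a common total), and 0 with edgeR or DESeq2 on the UMIs. An unadjusted p under 0.05 was seen for 1, *tbx2b*, with a log2 fold change of −0.49 for 3 over 2 dpf (95% interval −0.89 to −0.09, adjusted p = 0.268). Of the 10196 genes tested, 0.912% were called in either direction, 0.539% were higher at 3 dpf, and 12% had an unadjusted p under 0.05. The other 6 members had log2 fold changes between −0.34 and 0.17.

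In mutant hearts *tbx2a* was higher at 3 than at 2 dpf. It had 2.41, 4.60 and 7.26 UMIs per 10000 (lowest, median and highest) in mutant hearts at 3 dpf, and 0.866, 2.32 and 2.71 in mutant hearts at 2 dpf, and the groups overlapped by the lowest 3 dpf heart only. The log2 fold change was 0.99 ± 0.240 (SE; limma, adjusted p = 0.00316). It was lost without mutant heart 26 of 2 dpf (0.85, adjusted p = 0.0179) or mutant heart 42 of 3 dpf (0.91, adjusted p = 0.0131). *tbx2b* had medians of 6.07 at 3 dpf and 4.84 at 2 dpf, *tbx3a* 1.98 and 0.806, and *tbx5a* 0.857 and 0.239. Their log2 fold changes were 0.36, 0.89 and 0.91, with adjusted p of 0.447, 0.114 and 0.141 (limma). In all 1 of 7 members was higher and 0 lower, where 3.18% of all genes were called in either direction and 1.39% were higher.

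The difference between these courses was tested as an interaction. For *tbx2a* the log2 change from 2 to 3 dpf was 1.30 ± 0.322 greater in mutant than in wildtype hearts (SE; limma, adjusted p = 0.00860), where 1.26% of genes were called in either direction and 0.461% with a greater change in mutants. This value stood close to the threshold: it kept its direction in all 41 fits that each left out 1 heart, with an adjusted p of 0.00463 to 0.0267, and lost its call in 22 of them. *tbx2b*, *tbx3a* and *tbx5a* had differences of 0.85, 1.22 and 1.15 that did not pass (adjusted p = 0.118, 0.142 and 0.244). For *tbx1*, *tbx15* and *tbx20* they were 0.46, 0.50 and −0.38.

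**Figure D2:**
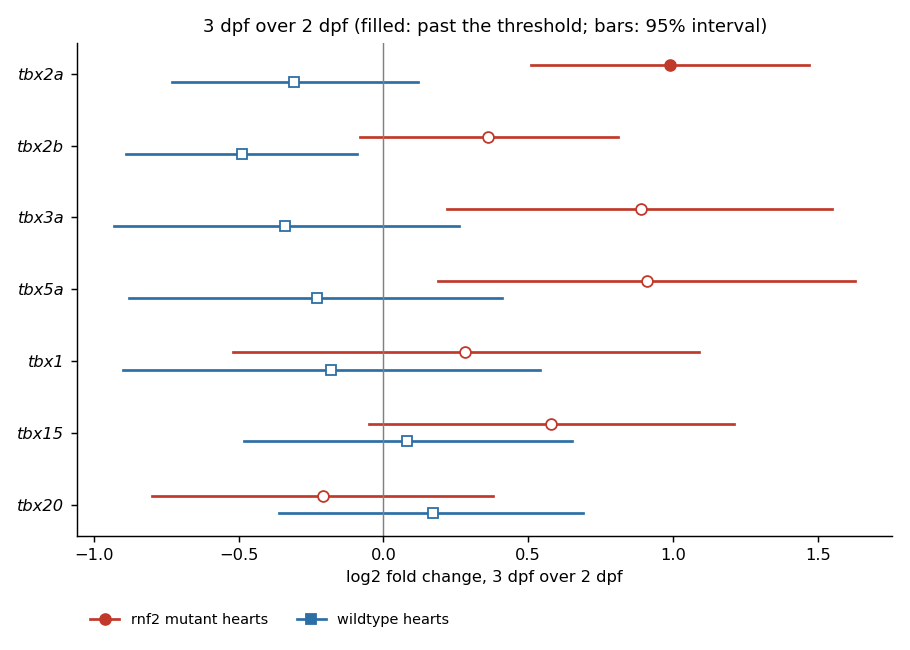
Log2 fold change of 7 T-box genes from 2 to 3 dpf (x axis) in *rnf2* mutant hearts (red circles) and wildtype hearts (blue squares), with 95% intervals as bars and filled symbols where the adjusted p was under 0.01. Only *tbx2a* in mutant hearts is filled, at 0.99, beside −0.31 in wildtype hearts.

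The order of the members by pooled level differed between the genotypes, but its lowest places rested on few UMIs. In mutant hearts at 3 dpf the pooled levels were 6.25 UMIs per 10000 for *tbx2b*, 4.84 for *tbx2a*, 1.78 for *tbx3a*, 0.834 for *tbx5a*, 0.707 for *tbx1*, 0.417 for *tbx15* and 0.0725 for *tbx20*. In wildtype hearts they were 2.32 for *tbx2b*, 2.12 for *tbx2a*, 0.488 for *tbx5a*, 0.317 for *tbx1*, 0.146 for *tbx20*, 0.0732 for *tbx15* and 0.0244 for *tbx3a*. The wildtype levels of *tbx20*, *tbx15* and *tbx3a* rested on 6, 3 and 1 UMIs, and that of *tbx20* in mutants on 4 UMIs. The order of these 3 genes in wildtypes is therefore not read. Over single hearts, neighbours in both orders overlapped in range. The overlap was small between *tbx2a* and *tbx3a* in mutants (2.41 at the lowest and 2.52 at the highest) and between *tbx2a* and *tbx5a* in wildtypes (0.823 and 0.942). These levels count 3′ tags and were not divided by transcript length.

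Several cell types of the dissected tissue could contribute to these values, and in whole hearts a change in the number of cells that express a gene and a change in RNA per cell cannot be told apart. In hearts at 3 dpf the 7 endocardial and endothelial markers summed to 103 to 141 normalized UMIs in mutants and 48.5 to 125 in wildtypes, and 1 of 7, *egfl7*, was higher (log2 fold change 1.1; limma, adjusted p = 4.79e-07). The 7 cardiomyocyte markers summed to 809 to 1307 in mutants and 896 to 1502 in wildtypes, and 1 of 7 was higher and 0 lower. The 7 skeletal muscle markers summed to 161 to 235 in mutants and 184 to 401 in wildtypes, with 1 lower and 0 higher. Of all genes, 5.36% were called in either direction at 3 dpf and 0.634% at 2 dpf. Of 12 pharyngeal and cartilage markers 9 were listed, with sums of 17.2 to 45.7 in mutants and 27.7 to 48.3 in wildtypes, and *acana* was at 0 in every mutant heart. It was thus in the table through the wildtypes, and this listing favoured a lower value in mutants. Sums of the 3 listed epicardial markers were 1.84 to 25.2 in mutants and 1.90 to 32.9 in wildtypes, and 1 of 3, *tcf21*, was lower (−1.46, adjusted p = 0.00329). The 6 listed markers of outflow tract smooth muscle summed to 30.3 to 52.3 in mutants and 26.7 to 146 in wildtypes, where *fbln5* was lower (−3.0, adjusted p = 1.40e-15) and *acta2* higher (0.76, adjusted p = 0.00396). At 2 dpf *acta2* was also higher in mutants (1.47, adjusted p = 1.80e-08), and 3 of 5 listed markers of yolk and liver were higher in mutants, with sums of 75.5 to 361 against 35.5 to 169. Apart from *acana*, whether a marker was listed through 1 genotype was not examined. The part of these cell types in the T-box values was not tested. The tags also set an upper limit on UMIs per gene and heart, which some gene reached in every heart at 2 and 3 dpf. A count at this limit is scaled lower in deeper hearts, and mutant hearts had the higher median depth. Whether any marker was at the limit was not tested. The highest count of a T-box member in a heart was 69 UMIs, for *tbx2b* in mutants at 3 dpf.

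In whole embryos at 3 dpf *tbx3a*, *tbx5a*, *tbx15* and *tbx20* were higher in mutants. *tbx5a* had 95, 115 and 127 normalized reads (lowest, median and highest) in 7 mutant pools, against 33.7, 59.5 and 80.5 in 8 wildtype pools. The groups did not overlap, as in 16.5% of all genes tested, and the log2 fold change was 0.97 ± 0.142 (SE; limma against 0, adjusted p = 1.26e-05). Its neighbour *tbx3a* had 200, 267 and 320 normalized reads in mutant pools and 125, 151 and 213 in wildtype pools. Of 7 mutant pools, 6 were above all wildtype pools, and the log2 fold change was 0.74 ± 0.116 (SE; limma, adjusted p = 2.57e-05).

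*tbx15* had 194, 255 and 309 normalized reads in mutant pools against 176, 192 and 231 in wildtype pools, with 6 of 7 mutant pools above the wildtype range and a log2 fold change of 0.39 ± 0.0966 (SE; limma, adjusted p = 0.00255). *tbx20* had 36.5, 45.8 and 57.9 normalized reads in mutant pools and 18.6, 29.5 and 41.6 in wildtype pools. Its log2 fold change was 0.65 ± 0.184 (SE; limma, adjusted p = 0.00602), close to the threshold, and the call was lost in 8 of 15 fits that each left out 1 pool, where the adjusted p reached 0.0149. These were the fits without mutant pool 1, 2, 5 or 8 or wildtype pool 1, 3, 4 or 5, with log2 fold changes of 0.57 to 0.65.

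The remaining members did not pass in whole embryos. *tbx2a* had 291, 339 and 429 normalized reads in mutant pools and 321, 339 and 381 in wildtype pools, a log2 fold change of 0.07 with a 95% interval of −0.10 to 0.24 (limma, adjusted p = 0.492). *tbx2b* had 315, 394 and 442 in mutant pools and 262, 366 and 407 in wildtype pools, a log2 fold change of 0.14 (−0.05 to 0.33, adjusted p = 0.220). *tbx1* (ENSDARG00000031891) had 74.3, 109 and 146 normalized reads in mutant pools and 94.5, 136 and 169 in wildtype pools, and its log2 fold change of −0.33 (−0.60 to −0.06) fell short of the threshold (adjusted p = 0.0409). *tbx5b*, the second copy of the Tbx5 gene, was low in both, with 4.87, 11.1 and 19.6 normalized reads in mutant pools and 10.4, 13.8 and 18 in wildtype pools (log2 fold change −0.31, −0.83 to 0.20, adjusted p = 0.302).

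The second identifier of *tbx1* had 0 to 3.81 normalized reads in mutant pools and 0 to 3.37 in wildtype pools and stayed under the minimum mean of 5. In all, 4 of 8 members were higher and 0 lower in a test against 0, where 34.7% of the 22685 genes tested were called in either direction and 16.6% were higher, and the median log2 fold change of the 8 was 0.26, beside 0.03 over all genes. Against a log2 fold change of 1, 0 of 8 passed at an adjusted p of at most 0.1 (limma treat), 0 had an unadjusted p under 0.05, and edgeR and DESeq2 also called 0, where 1.91% of genes were called in either direction and 1.01% were higher. Other tissues differed between the pools: the 7 cardiomyocyte markers summed to 1691 to 2208 normalized reads in mutants and 2376 to 3487 in wildtypes, the 10 listed pharyngeal and cartilage markers to 6565 to 11620 in mutants and 15952 to 26071 in wildtypes, and the 6 listed blood markers to 10969 to 18668 in mutants and 3288 to 10122 in wildtypes. The 6 listed markers of outflow tract smooth muscle summed to 563 to 997 in mutants and 1174 to 1570 in wildtypes, with 4 of 6 lower, and the 7 epidermal markers to 124972 to 160016 in mutants and 91623 to 118882 in wildtypes, with 3 of 7 higher. Their part in the T-box values was not tested.

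**Figure D3:**
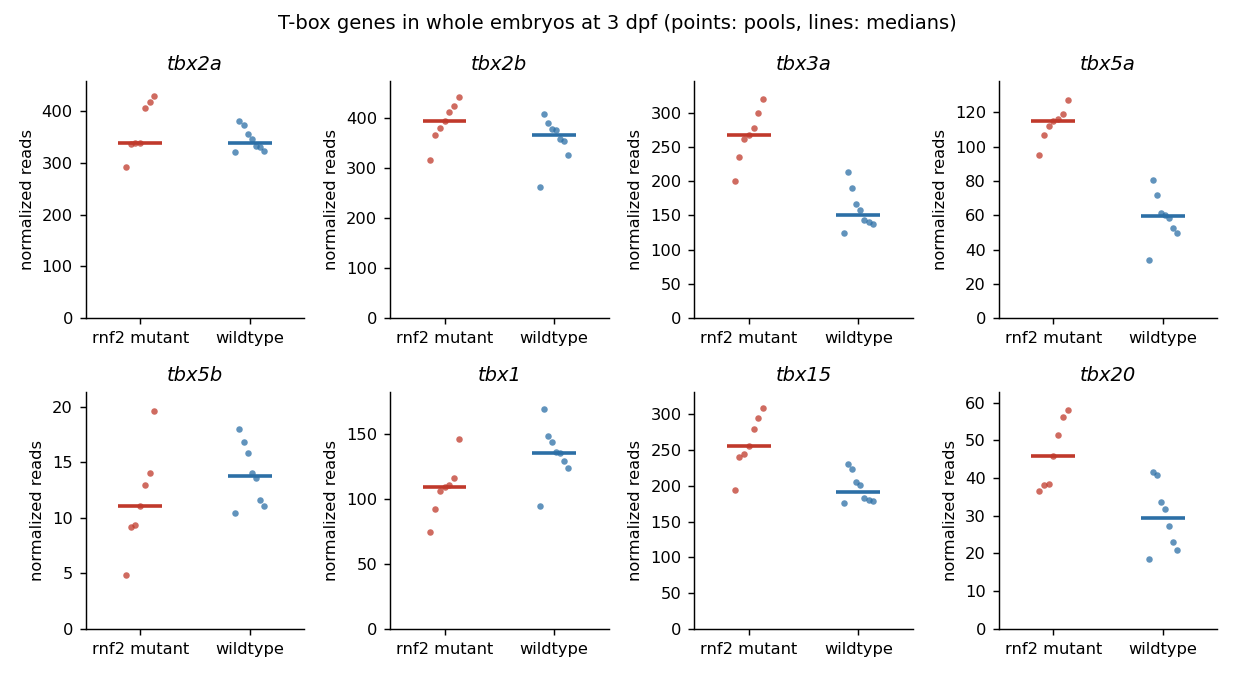
Normalized reads (y axis, from 0) of the 8 T-box genes in whole embryos at 3 dpf, *rnf2* mutant pools in red on the left and wildtype pools in blue on the right, 1 point per pool with the median as a line. The 7 mutant pools lie above all 8 wildtype pools for *tbx5a*, at 95 to 127 against 33.7 to 80.5; for *tbx2a* both medians are 339.

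Heart and whole embryo at 3 dpf can be set side by side by their intervals only, since one assay counts 3′ tags of 1 organ and the other reads of whole transcripts of all organs, and the difference was not tested. Genotype also cannot be told apart from the strain label in whole embryos, while hearts of both genotypes were of TU/TLF mixed background. The log2(value + 1) scale also understates changes at the low counts of hearts, so which intervals overlap depends partly on level. For *tbx15* in hearts the ratio of UMI shares was 5.69 (1.72 to 29.6, counting error only). For *tbx2a* the log2 fold change was 1.12 (0.66 to 1.58) in hearts and 0.07 (−0.10 to 0.24) in whole embryos. For *tbx2b* it was 1.35 (0.93 to 1.78) in hearts and 0.14 (−0.05 to 0.33) in whole embryos, and for *tbx3a* 3.10 (2.41 to 3.78) and 0.74 (0.50 to 0.98). The intervals of these 3 genes did not overlap between hearts and whole embryos, and neither did those of *tbx1*. *tbx3a* was listed in hearts through the mutants, as was *tbx15*, so their heart intervals are no independent support. *tbx5a* had 0.78 (0.09 to 1.46) in hearts and 0.97 (0.67 to 1.27) in whole embryos, and *tbx15* 0.94 (0.24 to 1.65) and 0.39 (0.19 to 0.59). *tbx20* had −0.25 (−0.82 to 0.32) in hearts and 0.65 (0.27 to 1.04) in whole embryos. Its heart value rested on 4 UMIs in mutants and 6 in wildtypes and its interval spans 0, so its sign there is not read. *tbx1* had 0.79 (0.07 to 1.52) in hearts and −0.33 (−0.60 to −0.06) in whole embryos, of opposite sign, and passed the test in neither.

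**Figure D4:**
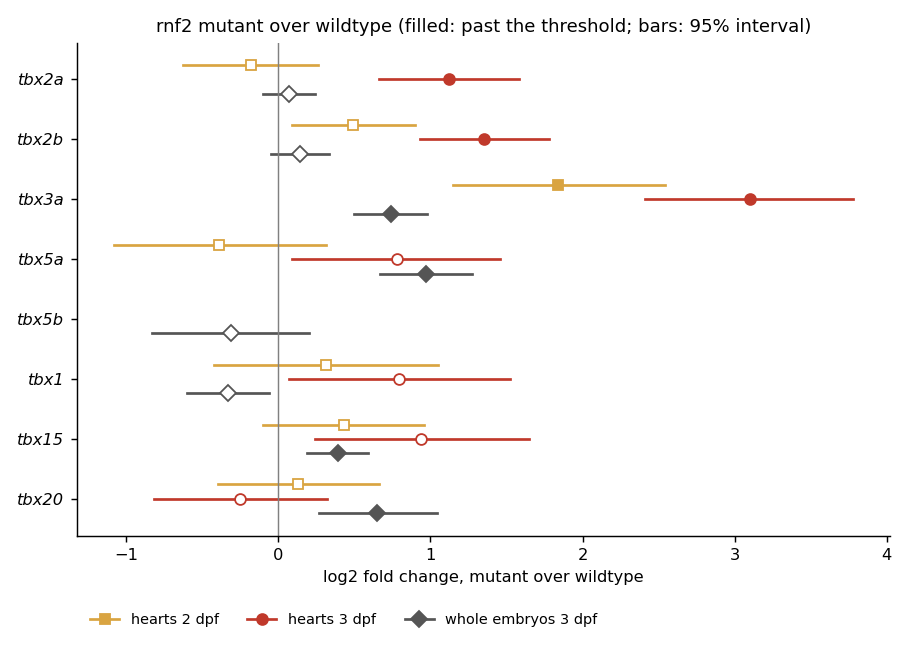
Log2 fold change, *rnf2* mutant over wildtype (x axis), of the 8 T-box genes in hearts at 2 dpf (yellow squares), hearts at 3 dpf (red circles) and whole embryos at 3 dpf (grey diamonds), with 95% intervals as bars and filled symbols where the adjusted p was under 0.01. Filled are *tbx3a* in all 3 settings, *tbx2a* and *tbx2b* in hearts at 3 dpf, and *tbx5a*, *tbx15* and *tbx20* in whole embryos.

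Of the other T-box genes, 12 of 20 listed symbols had enough reads in whole embryos, where 5 were higher and 1 lower, beside 16.6% of all genes higher and 34.7% called in either direction. *tbx4*, the hindlimb member of the family and neighbour of *tbx2b*, had a log2 fold change of 1.35 ± 0.157 (SE; limma, adjusted p = 6.26e-07). The mesodermal genes *tbx16*, *tbx6l* and *tbxta* had 1.15, 1.14 and 0.77 (adjusted p = 0.00683, 0.000973 and 0.00138), and *mgaa*, which encodes a T-box partner of Max, had 0.29 (adjusted p = 0.00318). *tbr1a*, a gene of forebrain neurons, was lower at −0.66 (adjusted p = 0.00557). In hearts 1, 3 and 2 of the other T-box genes were listed at 1, 2 and 3 dpf and 0 passed between the genotypes at any age with limma. The epicardial gene *tbx18* was higher at 3 than at 2 dpf in wildtype hearts (log2 fold change 1.27 ± 0.303, SE; limma, adjusted p = 0.00707). In mutant hearts its change with age was −0.16 (adjusted p = 0.890), the interaction was −1.43 (adjusted p = 0.0665), and mutant over wildtype at 3 dpf it had −1.25 (adjusted p = 0.0198), none past the threshold.

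Of the chamber genes gathered here as possible targets of T-box factors, 4 were lower in mutant hearts at 3 dpf and 6 in mutant whole embryos. Whether T-box factors act on each of these genes was not tested. Of all genes, 5.36% were called in either direction in hearts at 3 dpf, 0.634% at 2 dpf and 34.7% in whole embryos. In hearts at 3 dpf 0 of 7 listed genes were higher and 4 lower, with a median log2 fold change of −0.73 beside 0.08 over all genes, and the largest falls were in *vmhc*, the ventricular myosin heavy chain (−1.78 ± 0.137, SE; limma, adjusted p = 2.53e-22), *nppb*, a natriuretic peptide (−1.38, adjusted p = 0.000342), and *myh6*, the atrial myosin heavy chain (−0.78, adjusted p = 0.000479). At 2 dpf 1 of 6 was higher, *nppb* (1.18, adjusted p = 6.67e-06), and 1 lower, *vmhc* (−1.14, adjusted p = 9.24e-14). In whole embryos 1 of 9 was higher, *cx36.7*, a cardiac connexin (1.55, adjusted p = 0.00292), and 6 lower, led by *nppa* (−2.47, adjusted p = 3.95e-08), *nppb* (−2.22, adjusted p = 1.55e-05) and *myh6* (−0.81, adjusted p = 2.21e-05). Cardiomyocyte markers fell there too, with 5 of 7 lower and a median log2 fold change of −1.05, beside −0.62 for the chamber genes. In hearts at 3 dpf 0 of these 7 markers were lower and 1 was higher, with a median of −0.04. At 1 dpf 0 of 6 passed with limma. The largest fall of the 6 was in *nppa* (−1.84 ± 0.458, SE), which did not reach the threshold (adjusted p = 0.0584). In hearts at 2 dpf *nppa* did not pass either (−0.27, adjusted p = 0.331), and at 3 dpf it was lower (−0.73, adjusted p = 1.08e-06). The paper reports *nppa* as significantly lower in mutant hearts at the earliest and the latest of these ages. In hearts at 2 and 3 dpf a gene at the upper limit of UMIs would tend to be scaled lower in mutants. Their median depth was higher than that of wildtypes. Whether *vmhc*, *myh6* or other chamber genes were at this limit, and its part in their falls in hearts, was not tested.

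Of 16 partners and upstream regulators of T-box factors in the heart, 10 were listed in hearts at 3 dpf and 1 was higher in mutants, *nkx2.7*, a homeobox partner (log2 fold change 2.22 ± 0.337, SE; limma, adjusted p = 1.22e-07), with 0 lower. At 1 and 2 dpf 0 of 9 and 0 of 11 passed. Whether *nkx2.7* was listed at 3 dpf through the mutants was not examined. In whole embryos 2 of 14 were higher, *wnt2bb* (0.73, adjusted p = 0.00184) and *gata6* (0.57, adjusted p = 0.00524), and 2 lower, *wnt2* (−0.76, adjusted p = 0.00730) and *hand2* (−0.33, adjusted p = 0.00375). That share did not exceed the 34.7% of all genes called in either direction there. In hearts at 3 dpf 5.36% of all genes were called. *bmp4*, a signal upstream of Tbx2 in the mouse canal, was lower at 3 than at 2 dpf in both mutant hearts (−1.0, adjusted p = 0.00130) and wildtype hearts (−1.40, adjusted p = 2.14e-07).

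Genes of the atrioventricular canal and its cushions, the region where Tbx2 and Tbx3 act, were counted beside all genes. In hearts 5.36% of all genes were called in either direction at 3 dpf and 0.634% at 2 dpf. In mutant hearts at 3 dpf 1 of 12 was higher, *twist1b* (log2 fold change 1.83, adjusted p = 1.48e-05), and 1 lower, *angptl7* (−1.45, adjusted p = 0.00476; limma). At 2 dpf 1 of 10 was higher, again *twist1b* (1.38, adjusted p = 0.00474), and 0 lower. Whether *twist1b* and *angptl7* were listed in hearts through 1 genotype was not examined. In whole embryos 2 of 14 were higher, *cspg5a* (0.70, adjusted p = 0.000548) and *twist1b* (0.44, adjusted p = 0.000942), and 3 lower, *spp1* (−1.15, adjusted p = 0.00236), *klf2a*, a gene that responds to blood flow (−1.06, adjusted p = 2.96e-08), and *vcana* (−0.90, adjusted p = 1.56e-05), a share near the 34.7% of all genes called.

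Among genes of the pectoral fin bud, which *tbx5a* initiates, 5 of 22 were higher and 3 lower in mutant whole embryos, a share near the 34.7% of all genes called there, with a median log2 fold change of −0.02 beside 0.03 over all genes. The largest increases were in *hoxa9b*, *hoxd13a* and *hoxd9a* (log2 fold changes 2.65, 1.49 and 1.14, adjusted p = 5.54e-14, 0.000179 and 8.05e-08; limma), and the decreases in *and2*, *prrx1b* and *lef1* (−0.80, −0.59 and −0.50, adjusted p = 0.000295, 8.64e-05 and 0.000929). In hearts *hoxd9a* was higher and *and2* lower, with 2.15 and −2.08 at 2 dpf (adjusted p = 4.58e-06 and 3.03e-06) and 2.66 and −1.63 at 3 dpf (adjusted p = 3.94e-09 and 0.00112). These were the only calls among 12 listed genes at 2 dpf and 10 at 3 dpf. Of all genes 0.634% and 5.36% were called in either direction at these ages. Whether *hoxd9a* or *and2* was listed through the genotype where it was higher was not examined, so these p-values are no independent support.

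Among genes of the pharyngeal arches and the second heart field, where *tbx1* acts, 3 of 18 were higher and 7 lower in mutant whole embryos, beside 34.7% of all genes called in either direction. The largest decreases were in *cyp26b1*, which breaks down retinoic acid, *gbx2* and *cyp26c1* (log2 fold changes −1.32, −1.07 and −0.70, adjusted p = 8.39e-11, 0.000683 and 0.00244; limma). The increases were in *cyp26a1*, *foxc1a* and *aldh1a2* (0.83, 0.56 and 0.30, adjusted p = 1.51e-06, 0.00180 and 0.00358). In hearts at 3 dpf 0 of 14 were higher and 3 lower, *cyp26b1*, *tcf21* and *edn1* (−2.15, −1.46 and −1.41, adjusted p = 4.44e-08, 0.00329 and 0.00448), and at 2 dpf 0 of 18 passed with limma. Of all genes 5.36% were called in either direction in hearts at 3 dpf. Whether *cyp26b1*, *tcf21* and *edn1* were listed through the wildtypes was not examined.

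The genes most alike in pattern were read from Spearman correlations over the 19 hearts of 3 dpf, both genotypes together, as a description: these hearts share the genotype difference and the depth. Among genes that averaged 5 or more normalized UMIs they were *arl4ab*, *pkig* and *il6st* for *tbx2b* (0.90, 0.89 and 0.88), *zgc:77849*, *CBFA2T3* and *krt18* for *tbx2a* (0.86, 0.86 and 0.84), *txnipa*, *clec14a* and *tuba8l2* for *tbx3a* (0.89, 0.87 and 0.87), and *jam3b*, *apln* and *trdn* for *tbx20* (0.77, 0.67 and 0.66). *tbx3a* was above 0 in 10 and *tbx20* in 6 of these 19 hearts, and their other ranks are tied at 0. The 15 whole embryo pools, both genotypes together, likewise share the genotype difference and the strain label, and 34.7% of genes tested were called between them. Over these pools *tbx3a* was most like *slc36a1* (0.96), *si:ch211-74m13.3* (0.95) and *gse1* (0.94), and *tbx5a* like *si:dkey-120c6.5*, *ddit3* and *arfgap3* (0.95, 0.95 and 0.94). For *tbx15* they were *dvl2*, *tfe3a* and *dysf* (0.98, 0.95 and 0.95), and for *tbx20* *PELI2*, *MYO1G* and *si:ch211-120j21.1* (0.96, 0.95 and 0.94). *tbx2a* was most like *frmpd1a*, *irx5a* and *SCLY* (0.92, 0.89 and 0.85), *tbx2b* like *gbgt1l1*, *si:ch211-217k17.12* and *ORMDL3* (0.92, 0.90 and 0.90), *tbx1* like *map4k5*, *kank1a* and *klf3* (0.93, 0.91 and 0.89), and *tbx5b* like *rpusd4*, *psat1* and *SSBP3* (0.89, 0.87 and 0.86).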

How the data were processed

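Whole embryos were sequenced after rRNA depletion, aligned by the authors with STAR 2.5.2b to GRCz10, and deposited as a signal per gene, read counts divided by 1 DESeq2 1.16.1 size factor per library. Hearts were sequenced with a method based on CEL-seq, and the deposited score per gene is the authors' UMI count divided by 1 size factor per heart, set apart for each age. Whole reads or UMIs were recovered from these steps in 73 of 73 libraries (tolerance 0.001). A UMI of 4 bases allows at most 256 molecules per gene and heart. Every heart at 2 and 3 dpf had a gene at this limit.

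Normalized values were tested with limma 3.58.1 in R 4.3.3 on log2(value + 1), over all genes of a table, with Benjamini-Hochberg adjustment. In whole embryos (mean of at least 5) an adjusted p of at most 0.1 against a log2 fold change of 1, or under 0.01 against 0, was called, and in hearts one under 0.01 against 0. The 3 against 2 dpf comparisons used 1 model of 4 groups on UMIs of 10196 shared genes, scaled to 49816 per heart. Alternatives were other pseudocounts and filters, edgeR 4.0.16, DESeq2 1.42.0, sva 3.50.0, covariates, thinning, a replicate block and leaving out each library, and the scripts were tested on simulated data. Exact intervals of UMI ratios cover counting error only.

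Members and gene lists were chosen with earlier results of these data known. Named were all members, other T-box genes past the threshold, up to 3 of the largest called changes in each direction per list, and the 3 genes most alike. *nppa* was also named in hearts at every age, whether or not it was called. ChIP-seq peaks were not analysed here.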

Additional observations from a re-analysis of the deposited data

Results flagged for a closer look

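Over the members and *rnf2*, 56 groups of hearts or pools were searched for 1 sample far from the others, without the 13 wildtype hearts of 2 dpf. In 5 of the 56 groups 1 sample was flagged, each for a member, and each rested on few molecules. Chance gives about 1 in 20 groups for normally distributed values, a rate that does not hold for counts near 0. *tbx15* had 12.7 normalized UMIs in mutant heart 9 at 1 dpf (3 UMIs), with the next mutant heart at 0.572. *tbx2b* had 9.33 in wildtype heart 7 at 1 dpf (3 UMIs), with the next at 3.84. *tbx2a* had 4.10 in mutant heart 26 at 2 dpf (4 UMIs), with the next at 8.59, and this heart bears on the change of *tbx2a* with age. *tbx3a* had 0.692 in wildtype heart 23 at 3 dpf (1 UMI), with all others at 0. *tbx20* had 3.14 in mutant heart 36 at 3 dpf (3 UMIs), with the next at 0.919.

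The change of *tbx2a* from 2 to 3 dpf differed between mutant and wildtype hearts by 1.30 on the log2 scale (limma interaction, adjusted p = 0.00860).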

How the results depend on the processing

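Of 368 values of the members' log2 fold changes under other settings, 357 kept their direction and side of the threshold, 8 lost a call and 3 changed sign. Of 1473 values with 1 library left out, 1435 kept both, 32 lost a call and 6 changed sign. Most of these values had no call in the main fit and so none to lose. Main calls were 4 in whole embryos against 0, and 1 and 3 in hearts at 2 and 3 dpf. The change in mutants and the interaction had 1 each. The causes were not tested.

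The sign changes were in genes near 0: *tbx2b* at 1 dpf (0.01 with thinning, and −0.27 to 0.14 with 1 heart left out, positive at 0.06 without wildtype heart 7 and 0.14 without mutant heart 3), *tbx15* at 1 dpf (−0.26 to 0.34, lowest without mutant heart 9), *tbx20* at 2 dpf (−0.00096 with thinning, −0.01 to 0.24 with 1 heart left out, lowest without mutant heart 32) and *tbx15* from 2 to 3 dpf in wildtypes (−0.02 with edgeR, −0.04 to 0.19 with 1 heart left out, −0.04 and −0.03 without wildtype hearts 17 and 18 of 3 dpf). The interaction of *rnf2* changed sign to −0.01 with a pseudocount of 0.1, −0.36 with edgeR and −0.35 with DESeq2.

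With the number of detected genes as a covariate or with thinning, 0 members were called at 2 dpf. With a pseudocount of 0.1, 0 were called for the change in mutants (*tbx2a* 1.06, adjusted p = 0.0113) and for the interaction (1.40, adjusted p = 0.0276). With 1 heart left out both counts ranged from 0 to 1. DESeq2 gave no adjusted p for *tbx3a* at 2 dpf.

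Counts over all genes moved by more than 1.5 times as follows. In whole embryos against a log2 fold change of 1 (228 higher, 206 lower), edgeR called 413 higher. At 1 dpf (6 lower) edgeR and DESeq2 each called 1 and thinning 0. At 2 dpf (42 higher, 28 lower) higher calls were 15 with a pseudocount of 0.1, 78 with edgeR, 64 with DESeq2, 12 with the covariate and 1 with thinning, and lower calls 11 with DESeq2, 6 with the covariate and 2 with thinning. At 3 dpf (332 higher, 269 lower) higher calls were 207 with a pseudocount of 0.1, 167 with the covariate and 95 with thinning, and lower calls 97 with thinning. From 2 to 3 dpf in wildtypes (55 higher, 38 lower) they were 24 and 23 with a pseudocount of 0.1, and 32 and 22 with DESeq2. In mutants (142 higher, 182 lower) higher calls were 82 with a pseudocount of 0.1, 263 with edgeR and 265 with DESeq2, and lower calls 304 with edgeR. For the interaction (47 higher, 81 lower) they were 20 and 47 with a pseudocount of 0.1.

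Replicate numbers shared between genotypes did not pair the samples: correlations of same-numbered deviations were −0.16 to 0.03 in whole embryos and −0.20 to 0.30 in hearts at 1 dpf. With a replicate block over the shared numbers, whole embryo calls were 138 higher and 111 lower against a log2 fold change of 1, and 1540 higher and 2366 lower against 0. The same pools without a block, an alternative chosen after seeing the data, gave 138 and 108, and 1654 and 2378. *tbx20* was 0.90 in both (adjusted p = 0.0271 with the block and 0.0220 without). The block changed no member's call at 1 dpf. The peak alternatives were not run. *tbx20* and *tbx15* in hearts are limited by depth, with at most 23 UMIs per group.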
